A study of Mus musculus with 103 samples.

Results

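The nucleolar-high and nucleolar-low embryos compared here are the 7 highest and the 7 lowest of 21 single 2-cell mouse embryos made with whole sperm. They were selected on their measured nucleolar score, the mean log2(CPM + 1) of the 10 nucleolar genes Fbl, Ncl, Nop56, Nop58, Bop1, Pes1, Dkc1, Wdr12, Rrs1 and Nolc1, where CPM is the read count of a gene scaled to a fixed library size. The 7 embryos between the groups were kept apart. The whole series holds 103 embryos, and the other 82 were made with sperm heads only.

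All embryos came from the FVB strain and from oocytes of females on Control diet, fertilised by intracytoplasmic sperm injection (ICSI), in which 1 sperm is placed into the oocyte by needle. Each embryo was taken 28 hours after injection and sequenced as its own library. The 21 whole-sperm embryos comprise 12 made with sperm from the rete testis, the duct network at the exit of the testis, and 9 with sperm from the cauda epididymis, the store of mature sperm. For these 2 groups a Control diet of the sperm donors is given only in the header of the deposited table. The sperm-head embryos form 4 groups, with 20 from cauda sperm of Control males, 17 from cauda sperm of low-protein (LP) males, 22 from rete sperm of Control males and 23 from rete sperm of LP males. The labels do not tie embryos to a male, a female or an injection day, so p-values below measure only the spread between embryos.

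The nucleolus is the place where ribosomal RNA is transcribed from its repeated genes, cut, modified and joined to ribosomal proteins. In the mouse the fertilised egg begins with nucleolus precursor bodies that do not yet make ribosomes, and ribosomal RNA synthesis resumes at the 2-cell stage together with the main wave of embryonic gene activation. The transcripts of ribosome assembly factors made at this stage stand beside a stock of oocyte transcripts that is being degraded.

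The ranking used the values of these same libraries. The split between high and low embryos is therefore a description, with no test, for the score genes and for every other gene measured in the 21 embryos. A test was made only in the 82 sperm-head embryos, which took no part in the ranking, and for the labelled contrast of rete with cauda sperm.

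The score ran from 3.83 to 6.78 over the 21 embryos. The 7 high embryos were rete 6 at 6.78, cauda 3 at 6.34, rete 12 at 6.27, rete 5 at 6.08, rete 3 at 5.96, rete 2 at 5.73 and cauda 9 at 5.58. The 7 low embryos were rete 8 at 4.77, cauda 5 at 4.73, rete 11 at 4.65, rete 9 at 4.42, cauda 10 at 4.29, rete 10 at 4.01 and cauda 6 at 3.83. The 7 embryos between them were cauda 7 at 5.27, rete 7 at 5.20, rete 1 at 5.08, cauda 4 at 4.96, cauda 8 at 4.94, cauda 11 at 4.79 and rete 4 at 4.79. The scores fell without a wide gap. The upper limit lies between 5.58 and 5.27, and at the lower limit rete 4 and rete 8 had nearly the same score.

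Both sources of sperm were found in both groups. The high embryos comprised 5 from rete and 2 from cauda sperm, and the low embryos 4 and 3. The mean score was 5.31 ± 0.84 (SD, n = 12) in rete and 4.97 ± 0.73 (SD, n = 9) in cauda embryos.

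**Figure D1:**
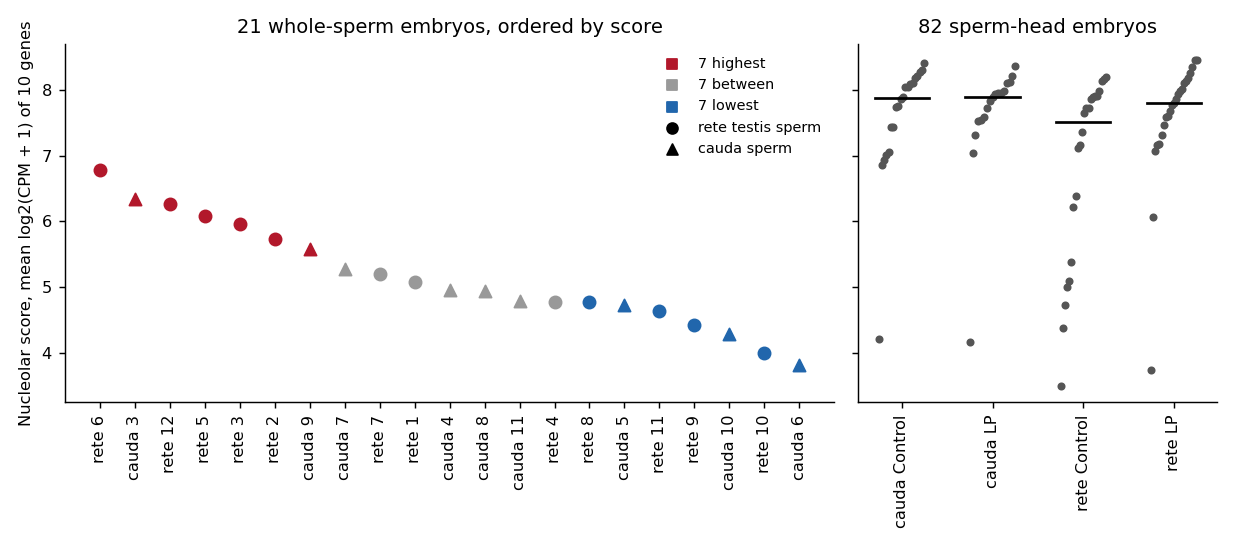
Nucleolar score, the mean log2(CPM + 1) of the 10 score genes, in each whole-sperm embryo (left, circles for rete and triangles for cauda sperm, coloured by group) and in each sperm-head embryo (right, black bar at the group median). Whole-sperm scores fall from 6.78 to 3.83 without a wide gap, and 70 of the 82 head embryos lie above the highest of them.

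The high embryos were not high beside head embryos. The median score of the 82 head embryos was 7.78 (3.51 to 8.45). Of these, 70 scored above the highest whole-sperm embryo, 10 lay within the whole-sperm range and 2 lay below it. Within the lower 12, 8 were made with rete sperm of Control males, 1 with cauda sperm of Control males, 1 with cauda sperm of LP males and 2 with rete sperm of LP males. Whole-sperm and head embryos were also sequenced to different depths, so kind of sperm and library cannot be told apart.

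Depth differed less between the 2 groups than among their members. Reads per library, meaning the total to which CPM was scaled, were recovered from the step between low values. They numbered 587709 to 5275013 in the high and 1861179 to 6058308 in the low embryos, with medians of 4374555 and 2597001. Of the 7894 genes listed, 7413 to 7869 reached 1 CPM in a high and 6696 to 7812 in a low embryo. The embryo cauda 5, in the low group, had both the most reads and the fewest genes at 1 CPM. The 10 most abundant genes of an embryo took 5.92 to 10.3% of its reads in the high and 9.36 to 13.4% in the low group. The part of these differences in the results was not tested.

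Markers of the 2-cell stage were present in all 21 embryos. Zscan4d, a gene switched on at this stage, had a median of 634.8 CPM (101 to 1573), and none of the 6 markers of the stage was at 0 in any embryo. The oocyte transcript Zp2, for a zona pellucida protein, had a median of 235 CPM (154 to 574). Of 10 markers of cumulus cells, the somatic cells around the oocyte, the table lists 3, whose summed level was 146 to 294 CPM in the high and 109 to 586 CPM in the low embryos. Of 19 markers of sperm, testis and epididymis it lists 4, at a summed 433 to 1009 CPM in the high and 139 to 604 CPM in the low embryos. The part of these cells in the results was not tested. Gata4, a transcription factor of several tissues, made 2.81 to 102 CPM of the male list in low embryos and 66.4 to 233 CPM in high embryos. Odf2 made 92.1 to 452 CPM in low and 266 to 783 CPM in high embryos. Of the 4 male markers 3 had a positive difference. Aqp9 went the other way, with 40.9 to 107 CPM in low and 20.5 to 57.7 CPM in high embryos.

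All 10 score genes, whose mean set the ranking, had a higher mean in the high embryos, by 0.86 to 3.70 on the log2(CPM + 1) scale. Only for Bop1 did the 7 and the 7 not overlap. Bop1, Pes1 and Wdr12 encode the 3 parts of the PeBoW complex, which is needed to mature the large ribosomal subunit. Bop1 stood at 14.4 to 100.4 CPM (median 25.7) in the high and 0.1 to 8.47 CPM (median 0.165) in the low embryos, where 0.1 is the value the authors wrote for 0 and 3 of the 7 low embryos had it. In the embryos between, Bop1 ranged from 0.1 to 10.5 CPM. Pes1 stood at 31.0 to 141 CPM (median 75.4) in the high and 6.07 to 112 CPM (median 33.4) in the low embryos, so most of its range was shared. Wdr12 stood at 4.62 to 35.3 CPM (median 11.6) against 0.1 to 9.74 CPM (median 2.03).

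Rrs1, whose yeast counterpart helps to bring 5S RNA into the large subunit, had the second largest difference. It stood at 3.64 to 62.4 CPM (median 30.0) in the high and 0.1 to 8.11 CPM (median 1.16) in the low embryos, with 1 high embryo, cauda 3, inside the low range. The genes of the box C/D particle, which guides 2'-O-methylation of ribosomal RNA, differed less. Fbl, its methyltransferase, stood at 8.51 to 50.4 CPM (median 37.7) against 1.49 to 21.8 CPM (median 8.86). Its core protein Nop58 stood at 55.3 to 274 CPM (median 83.6) against 23.4 to 107 CPM (median 60.8). Nop56, the other core protein, stood at 36.1 to 160 CPM (median 113) against 35.1 to 174 CPM (median 46.5), and the 2 high and 3 low cauda embryos differed by -0.27 in the other direction. Dkc1, the pseudouridine synthase of the box H/ACA particle, stood at 186 to 326 CPM (median 246) against 55.5 to 219 CPM (median 99.5). Ncl, the abundant nucleolar protein nucleolin, stood at 107 to 229 CPM (median 200.2) against 63.7 to 116 CPM (median 74.0), and Nolc1, a chaperone of both kinds of particle, at 104 to 334 CPM (median 216) against 33.3 to 140 CPM (median 73.6).

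**Figure D2:**
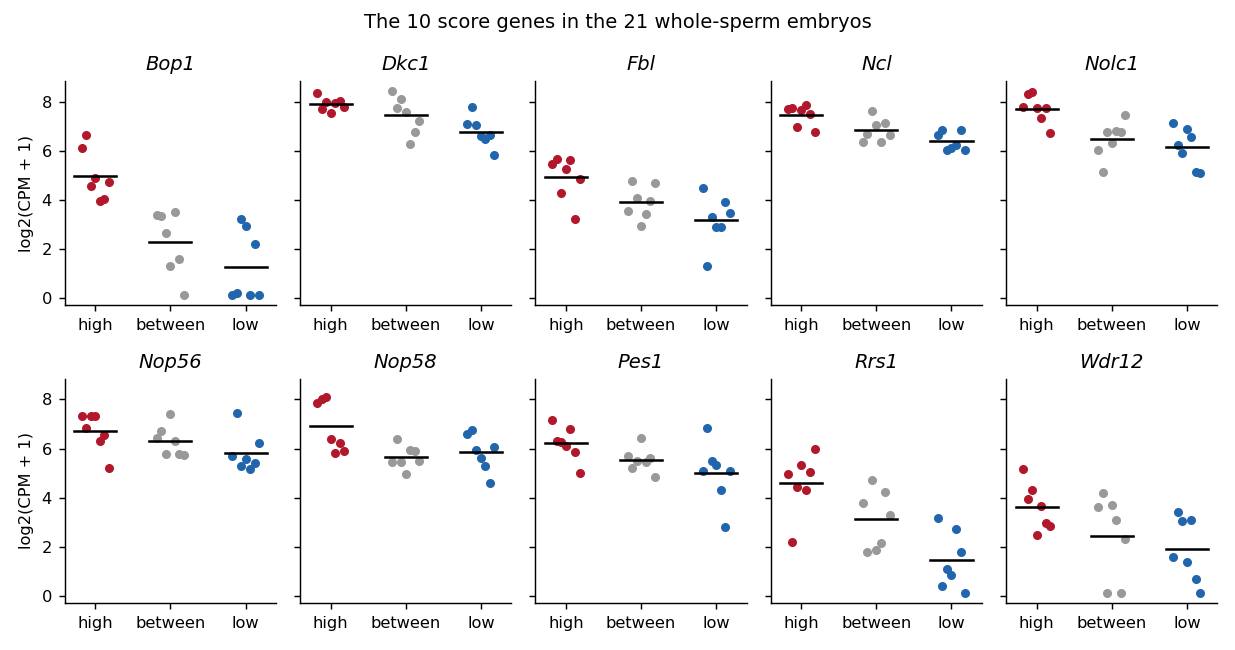
Level of each score gene, as log2(CPM + 1), in the 7 high, 7 between and 7 low whole-sperm embryos (points) with the group mean (bar). Bop1 is the gene whose high embryos, 14.4 to 100.4 CPM, all lie above the low embryos, 0.1 to 8.47 CPM.

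The score genes varied together more tightly in head than in whole-sperm embryos. Over the 45 pairs of score genes, the correlation of log2(CPM + 1) across the 21 whole-sperm embryos ranged from 0.05 to 0.74 with a median of 0.50, and across the 82 head embryos from 0.43 to 0.91 with a median of 0.76. These correlations are descriptions, since the genes of an embryo share its library and depth. Levels in head embryos were higher, for Bop1 a median of 180 CPM against 8.47 CPM in whole-sperm embryos and for Nolc1 600 CPM against 109 CPM.

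Promoters of score genes are shown because the mean of these genes set the ranking. RefSeq promoter windows on GRCm38.p6, 250 bases before and 50 after a start site, exist for 7 of the 10. Among them are the PeBoW gene Pes1, the box H/ACA gene Dkc1 and the box C/D gene Nop56. The start site used for Nop56 lies inside the annotated gene, which begins at base 130274367. Capitals mark the letters CACGTG, the E-box, which reads the same on both strands, and TATAAA or its reverse complement TTTATA. The Pes1 window is chr11:3963725-3964024 on the plus strand, that of Dkc1 is chrX:75095604-75095903 on the plus strand, and that of Nop56 is chr2:130274162-130274461 on the plus strand.
Pes1: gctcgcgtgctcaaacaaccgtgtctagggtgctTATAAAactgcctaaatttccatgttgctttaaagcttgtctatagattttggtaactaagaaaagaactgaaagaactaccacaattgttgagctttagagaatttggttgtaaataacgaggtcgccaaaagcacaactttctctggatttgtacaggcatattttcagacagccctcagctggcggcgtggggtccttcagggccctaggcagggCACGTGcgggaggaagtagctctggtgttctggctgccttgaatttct
Dkc1: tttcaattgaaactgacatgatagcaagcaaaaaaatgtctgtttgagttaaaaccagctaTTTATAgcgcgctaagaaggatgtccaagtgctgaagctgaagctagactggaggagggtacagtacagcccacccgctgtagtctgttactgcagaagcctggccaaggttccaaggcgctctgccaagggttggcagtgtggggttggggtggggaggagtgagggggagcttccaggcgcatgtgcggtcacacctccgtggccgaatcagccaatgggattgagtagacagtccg
Nop56: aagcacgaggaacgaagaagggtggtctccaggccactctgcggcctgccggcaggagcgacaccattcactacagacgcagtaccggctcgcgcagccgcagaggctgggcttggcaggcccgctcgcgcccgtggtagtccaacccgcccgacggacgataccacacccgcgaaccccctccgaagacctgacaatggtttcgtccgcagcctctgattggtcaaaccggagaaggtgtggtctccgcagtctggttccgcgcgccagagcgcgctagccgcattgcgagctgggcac

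The E-box in Pes1 begins at base 3 of the transcript. The TATAAA letters begin 216 bases before the start in Pes1 and 189 bases before it in Dkc1. CACGTG was in 1 of the 7 score gene promoters and in 7.15% of all 32851 windows, and TATAAA on either strand in 2 of the 7 and in 13.6% of the windows. The score genes were counted per gene, where a gene can have several windows. Counted so, CACGTG was in 12.1% and TATAAA in 8.51% of the 6004 genes that passed the filter and had a promoter entry. Another string, CGGAAGT with its reverse complement ACTTCCG, the core bound by ETS factors, was searched after the ETS factor gene Gabpa was seen among the largest differences. It was in none of the 7 score gene promoters and in 6.42% of all windows. The other ribosome biogenesis genes held it more often. Among genes with a promoter entry, it was in 51 of 107 of those genes (47.7%), 20 of 57 cytosolic ribosomal protein genes (35.1%), 49 of 177 genes higher in the high embryos without overlap (27.7%) and 1004 of 6004 genes that passed the filter (16.7%). No measurement of binding was examined for these windows, and a match is a description of letters only.

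Across the other genes, the high embryos had more transcripts at raised than at lowered level. Of 7772 genes that reached 5 CPM in 9 or more of the 21 embryos, 225 were higher in the high embryos by at least 1 on the log2(CPM + 1) scale with no overlap of the 7 and the 7 (2.9% of genes), and 13 were lower (0.167%). With no overlap but a difference of any size there were 228 (2.93%) and 14 (0.18%). Without the condition on overlap, 1853 genes were higher by at least 1 (23.8%) and 337 lower (4.34%). The median difference over all genes was 0.23, and 4739 genes (61%) lay above 0. Other scalings moved this centre, to 0.00 with median-of-ratios scaling and to -0.11 with quantile normalization. The calls were then 115 higher and 17 lower, and 25 higher and 9 lower. Both scalings also ranked the embryos anew, here and for the lists below. The high group kept 7 of its 7 embryos with median-of-ratios scaling and 6 with quantile normalization, and the low group kept 6 with each. Of the 225 higher genes 102 kept their call with median-of-ratios scaling and 14 with quantile normalization. Of the 13 lower genes 9 kept it with the first and 0 with the second. For 208 of the 225 higher genes and 10 of the 13 lower genes the mean of the 7 embryos between fell between the means of high and low.

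The largest differences towards high embryos were for genes close to 0 in most low embryos. Unc119b, which carries lipid-modified proteins to membranes, stood at 32.0 to 131 CPM (median 81.8) in the high and 0.1 to 8.61 CPM (median 0.77) in the low embryos, a difference of 5.04. Wdr77, the partner of the arginine methyltransferase Prmt5, stood at 59.99 to 198 CPM (median 90.8) against 0.1 to 36.0 CPM (median 2.63), a difference of 4.83. Alkbh4, a dioxygenase of the AlkB family, stood at 20.5 to 84.1 CPM (median 35.0) against 0.1 to 4.56 CPM, and 5 of the 7 low embryos were at the value for 0. In all 3 genes every high embryo lay above every low one, while single embryos of the group between reached the high range.

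Several of the next genes act in nuclear traffic and transcription. Tnpo3, the import receptor of SR splicing factors, stood at 104 to 373 CPM (median 189.7) in the high and 0.1 to 63.8 CPM (median 11.2) in the low embryos. Gabpa, an ETS transcription factor, stood at 96.8 to 289 CPM (median 164) against 0.1 to 65.9 CPM (median 14.5). Gtf3c5, a subunit of the RNA polymerase III factor TFIIIC, stood at 35.5 to 232 CPM (median 56.1) against 0.1 to 30.9 CPM (median 2.69). For Gabpa and Tnpo3 the cauda 7 embryo, next below the high group in score, had 2.08 and 5.21 CPM, under most of the low embryos. Further genes among the largest differences were Amhr2, the receptor of anti-Müllerian hormone, Ctsc, the protease cathepsin C, Folr1, a folate receptor, E130309D02Rik and Fam109a, with differences of 3.94 to 4.16. Amhr2 is also a cumulus marker, and stood at 13.3 to 109 CPM against 0.1 to 7.89 CPM. Of the other cumulus markers listed, Gja1 differed by 1.21 with overlap and Serpine2 by -1.02 with overlap.

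The genes lower in the high embryos differed by less, and none of the 13 kept its call with quantile normalization. Tmem150a stood at 0.1 to 27.4 CPM (median 18.2) in the high and 28.9 to 83.4 CPM (median 46.5) in the low embryos, a difference of -1.87. Vma21, an assembly factor of the proton-pumping V-ATPase, stood at 7.19 to 22.2 CPM (median 16.8) against 23.4 to 130 CPM (median 40.8). Lman1, a cargo receptor from the endoplasmic reticulum to the Golgi, stood at 16.6 to 32.1 CPM (median 28.9) against 49.3 to 105 CPM (median 63.4). The embryos between were not placed midway for every such gene, and for Vma21, Ccdc122 and Hibadh their mean log2 level lay below that of the high embryos. Arf1, a small GTPase of the Golgi, stood at 219 to 489 CPM (median 406) against 567 to 1544 CPM (median 767), and Nanos2, known as an RNA-binding protein of male germ cells, at 25.2 to 62.1 CPM (median 55.5) against 74.0 to 160 CPM (median 97.8). Gm11487, Gm5434, Tmem60, Selp (P-selectin), Cox18 (assembly of cytochrome c oxidase) and Hibadh (valine breakdown) differed by -1.10 to -1.57, Ccdc122 also by -1.57, and the last of the 13, 4930503E14Rik, by -1.52 at a mean under 10 CPM.

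**Figure D3:**
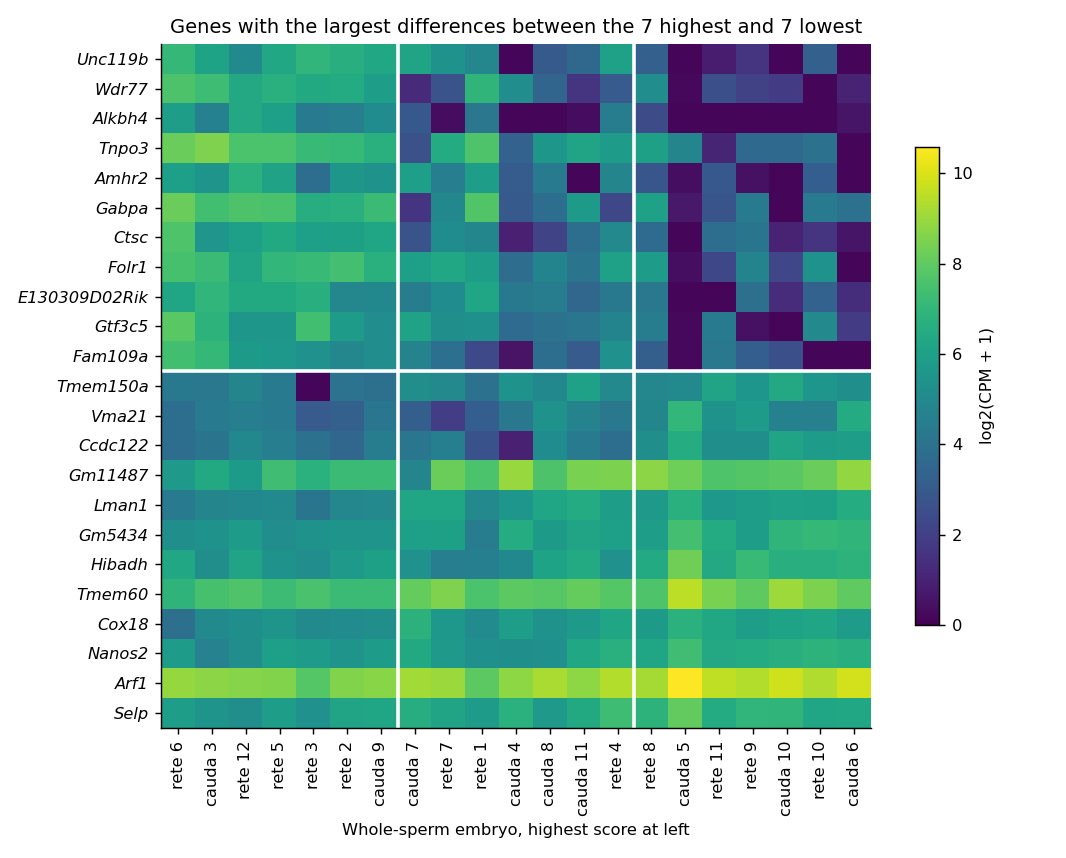
Level, as log2(CPM + 1), of 11 genes with the largest positive (above the white line) and 12 with the largest negative difference between the 7 high and 7 low embryos, among genes without overlap and with a mean of at least 10 CPM. Columns are whole-sperm embryos with the highest score at left, and white vertical lines bound the groups of 7. The upper genes stand near 0 in many low embryos, 5 of 7 for Alkbh4, while the lower genes are detected in every embryo apart from Tmem150a in rete 3.

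Other genes of ribosome assembly lay with the score genes. Of 133 such genes listed, which leaves out the score genes, 129 passed the filter and 117 had a positive difference, with a median of 1.41 against 0.23 over all genes. In this list 12 genes were higher without overlap, where 2.9% of all genes were. The count was 1 with quantile normalization, 6 with median-of-ratios scaling and 4 once the shallow embryos rete 2 and rete 1 were left out. Rete 1 was in neither group, and cauda 7, next in rank, took the place of rete 2 among the high embryos. Depth was therefore not the only change, here and in the other counts without these embryos. Among the 12 were Polr1c, a subunit shared by RNA polymerases I and III, Rrp9 and Pdcd11 of the small subunit processome, Bysl of the small subunit path, and Wdr74 and Ebna1bp2 of the large subunit path. Nop9, whose yeast counterpart binds the precursor of small subunit RNA, stood at 19.4 to 120 CPM (median 68.2) in the high and 0.1 to 23.8 CPM (median 1.60) in the low embryos, a difference of 4.30. Nop16, a factor of the large subunit, stood at 7.74 to 103 CPM (median 66.1) against 0.1 to 10.5 CPM (median 2.70), a difference of 3.88. In both genes 1 high embryo, rete 3, lay inside the range of the low embryos. At the other end of the list, Riok1, a kinase of late small subunit maturation, stood at 53.4 to 266 CPM against 82.2 to 657 CPM, and Npm3, a nucleoplasmin, at 12.01 to 34.0 CPM against 27.2 to 99.7 CPM, with differences of -0.98 and -0.89.

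Genes of the proteins of the cytosolic ribosome were higher throughout. Of 81 listed, 77 passed the filter and all 77 had a positive difference, with a median of 1.63, and 19 were higher without overlap, where 2.9% of all genes were. The count of 19 was 4 with quantile normalization, 8 with median-of-ratios scaling and 6 without rete 2 and rete 1. Rpl10a stood at 19.7 to 63.6 CPM (median 38.6) in the high and 0.1 to 18.2 CPM (median 6.14) in the low embryos, a difference of 2.96. Rps6, a protein of the small subunit, stood at 50.5 to 166 CPM (median 120) against 8.60 to 42.6 CPM (median 18.4), a difference of 2.67. These genes have many near-identical processed copies in the genome, and how the authors' counting split reads among copies is not given in the sources used here. Under quantile normalization 73 of 78 were positive, with a median of 0.97, and under median-of-ratios scaling 74 of 76, with a median of 1.24.

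Genes of the mitochondrial ribosome and of respiration had no common direction. Of 47 mitochondrial ribosomal protein genes 23 had a positive difference, with a median of -0.05, and of 53 nuclear genes of oxidative phosphorylation 26 had one, with a median of 0.00. Both medians lay below the 0.23 of all genes. The respiration list differed by source, with 36 of 53 positive and a median of 0.31 in the rete embryos, and 18 of 53 and a median of -0.34 in the cauda embryos, against 0.14 and 0.41 for all genes. With quantile normalization they were -0.14 and -0.07, on either side of the -0.11 of all genes.

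Genes that act next to the ribosome lay between these lists. Of 46 translation initiation factor genes 37 had a positive difference, with a median of 0.60. Eif3b, a scaffold of the initiation factor eIF3, stood at 22.7 to 114 CPM (median 75.4) in the high and 2.15 to 27.9 CPM (median 14.5) in the low embryos, a difference of 2.37. Eif3l differed by 3.14, from 5.08 to 67.5 CPM against 0.1 to 11.1 CPM. In the other direction Eif4e3, a cap-binding protein, stood at 111 to 220 CPM against 147 to 1075 CPM, and Eif2b1 at 98.1 to 303 CPM against 141 to 1394 CPM, where the highest low embryo was cauda 5 in both.

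Of 34 chaperonin and heat-shock genes 28 had a positive difference, with a median of 0.95. In this list 5 were higher without overlap, where 2.9% of all genes were, namely Hsph1, Hspa1a, Hspa1b, Fkbp4 and Cct8. The count of 5 was 0 with quantile normalization, 3 with median-of-ratios scaling and 1 without rete 2 and rete 1. Hspa1a and Hspa1b are near-identical copies, so their reads cannot be told apart with certainty. Hsph1, a partner of Hsp70, stood at 56.1 to 273 CPM (median 107) in the high and 0.495 to 53.1 CPM (median 11.8) in the low embryos. Cct6a, a subunit of the chaperonin TRiC, stood at 53.7 to 202 CPM (median 97.9) against 0.1 to 81.1 CPM (median 15.04). The mitochondrial co-chaperonin Hspe1 stood at 11.4 to 45.01 CPM against 22.8 to 57.9 CPM, and Hspa4l differed by -0.64.

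Of 27 genes of nucleotide synthesis 21 had a positive difference, with a median of 1.00. Impdh1, the first enzyme of the branch to GTP, stood at 31.5 to 95.0 CPM (median 59.9) in the high and 0.1 to 28.9 CPM (median 9.71) in the low embryos, a difference of 3.18 without overlap. Ppat, which makes the first committed step of purine synthesis, stood at 108 to 228 CPM (median 184) against 10.01 to 114 CPM (median 46.2). Atic, which catalyses the last steps of the same path, went the other way with 0.1 to 10.2 CPM against 3.47 to 56.6 CPM, and Dhodh of pyrimidine synthesis differed by -0.46.

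Proteasome subunit genes lay close to all genes, with 22 of 37 positive and a median of 0.25. Psmb1, a subunit of the catalytic core, stood at 22.5 to 63.9 CPM (median 40.8) against 2.69 to 21.8 CPM (median 8.50), without overlap. Psmb5, the chymotrypsin-like subunit, differed by 3.59, with 0.1 CPM as its lowest low value. The ATPase subunits Psmc5 and Psmc4 differed by -1.26 and -1.16.

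Oocyte-derived transcripts were on the whole slightly lower in the high embryos. Of 87 such genes 26 had a positive difference, with a median of -0.32 and no gene without overlap in either direction. With quantile normalization the median was -0.20 and with median-of-ratios scaling -0.35, against -0.11 and 0.00 for all genes. Obox1, a homeobox gene of the oocyte, stood at 167 to 473 CPM (median 297) in the high and 325 to 2590 CPM (median 1012) in the low embryos. Bcl2l10, an apoptosis regulator abundant in oocytes, stood at 340 to 1202 CPM (median 443) against 583 to 9383 CPM (median 1591), the highest in cauda 5. Cdc20, the activator of the anaphase-promoting complex, lay opposite to the list at 77.4 to 337 CPM (median 212) against 22.8 to 166 CPM (median 57.5), as did the chromatin repressor Trim28, which differed by 1.49. The Obox genes are a family of close copies, so the value of a single member is uncertain.

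The genes linked to the retroviral element MERVL, which mark the 2-cell stage, lay on the whole below all genes, with members in both directions. Of 48 such genes 21 had a positive difference, where 61% of all genes did. Their median was -0.09, which was -0.31 with quantile normalization and -0.44 with median-of-ratios scaling. The medians of all genes were 0.23, -0.11 and 0.00. Tdpoz2 stood at 51.5 to 356 CPM (median 123) in the high and 2.43 to 55.7 CPM (median 25.03) in the low embryos, whereas Zscan4b stood at 65.6 to 428 CPM (median 179) against 256 to 1131 CPM (median 699). Tdpoz1 differed by 2.36 and A430089I19Rik by -2.20, so single members of the list differed by more than 2 in both directions. Tdpoz and Zscan4 genes too are families of close copies.

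Of 20 genes of pluripotency and the first lineages 12 had a positive difference, a share close to the 61% of all genes, with a median of 0.99. Dppa4, Klf5 and Tbx3 (3 of the 20) were higher without overlap, where 2.9% of all genes were, and none of the list was with quantile normalization. Dppa4, a chromatin factor of early embryos and stem cells, stood at 84.9 to 231 CPM (median 146) in the high and 0.99 to 57.8 CPM (median 11.9) in the low embryos, a difference of 3.29. The growth factor gene Fgf4 differed by 2.80, from 2.77 to 70.5 CPM against 0.1 to 6.98 CPM. Nanog, a transcription factor of the inner cell mass, stood at 102 to 465.9 CPM (median 289) against 146 to 1359 CPM (median 567), and Gata3 of the outer lineage differed by -0.49.

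Of 56 genes of the cell cycle and replication 39 had a positive difference, with a median of 0.41. Cdk2, the kinase of S phase entry, stood at 70.1 to 186 CPM (median 114) in the high and 2.69 to 41.5 CPM (median 21.2) in the low embryos, without overlap. Mcm3, a part of the replicative helicase, differed by 2.94 and overlapped, since rete 3 had 1.11 CPM. Ccnb2, a mitotic cyclin of oocyte origin, stood at 47.8 to 140 CPM (median 59.8) against 62.8 to 720 CPM (median 177), and Cdk5 differed by -1.39.

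Of 17 genes of the p53 response and apoptosis 13 had a positive difference, with a median of 1.18. Sesn2, a stress-response regulator of mTORC1, stood at 249 to 562 CPM (median 412) in the high and 0.33 to 204 CPM (median 102) in the low embryos, without overlap. Mcl1, an inhibitor of apoptosis, differed by 2.75, while Plk2 and Bcl2l1 differed by -0.40 and -0.19.

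**Figure D4:**
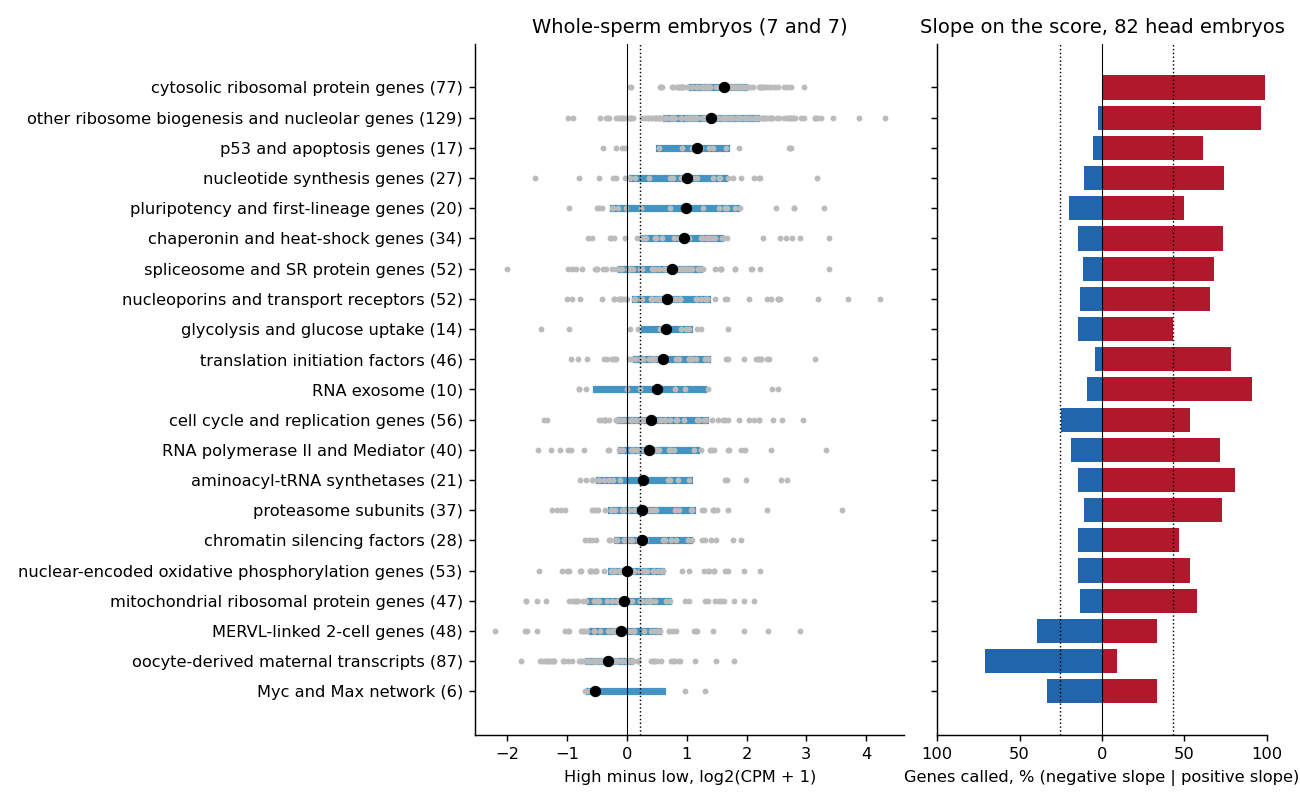
Left, difference between the 7 high and 7 low whole-sperm embryos for every list member that passed the filter (grey points), with the quartiles (blue bar) and the median (black point) of the list and the median of all genes (dotted, 0.23), in log2(CPM + 1). Right, share of each list with a called positive (red) or negative (blue) slope on the score in the 82 head embryos, with the shares over all genes dotted (43.3 and 25.3%). Cytosolic ribosomal protein genes and ribosome assembly genes stand at the top in both panels, and oocyte-derived transcripts have the largest share of negative slopes among the lists drawn.

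Whether the same genes go with the score elsewhere was asked in the head embryos. Each of 7884 genes was regressed with limma on the score of the same 10 genes over the 82 embryos, with a term for each of the 4 groups and Benjamini-Hochberg adjustment over all genes. The slope is the change in log2(CPM + 1) for each unit of score. It was positive at an adjusted p under 0.05 for 3413 genes (43.3%) and negative for 1994 (25.3%). With quantile normalization the split turned to 2678 positive and 3158 negative, and with median-of-ratios scaling to 2765 and 3067, so the balance of the 2 directions depends on the scale. Among rete LP embryos, 20 and 21 correlated at 0.97 and 22 and 23 at 0.94, where the median pair of that group had 0.76. Whether these are repeated libraries was not tested. With each of these pairs averaged, 3397 slopes were positive and 1990 negative. The score and the genes come from the same libraries and share their total. In head embryos the correlation of the score with the share of the 10 most abundant genes was -0.89, against -0.60 in the 21 whole-sperm embryos, and its part in the slopes was not tested.

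Of the 225 genes higher in high whole-sperm embryos without overlap, 213 had a called positive slope in head embryos (94.7%) and 0 a called negative one, where the backgrounds are 43.3 and 25.3%. Of the 13 lower genes, 11 had a called negative slope and 0 a positive one, and the exceptions were Arf1 and Cox18. The first count was 206 with quantile normalization, 207 with median-of-ratios scaling and 214 when the genes detected per embryo entered as a covariate. The slopes lean on few embryos of low score, since 3 of the 4 head groups hold 1 embryo far below the rest. Without the 12 head embryos that scored no higher than the highest whole-sperm embryo, 160 of the 225 genes had a called positive and 4 a called negative slope, against 2566 and 2164 of all genes, and 11 of the 13 lower genes a negative one.

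**Figure D5:**
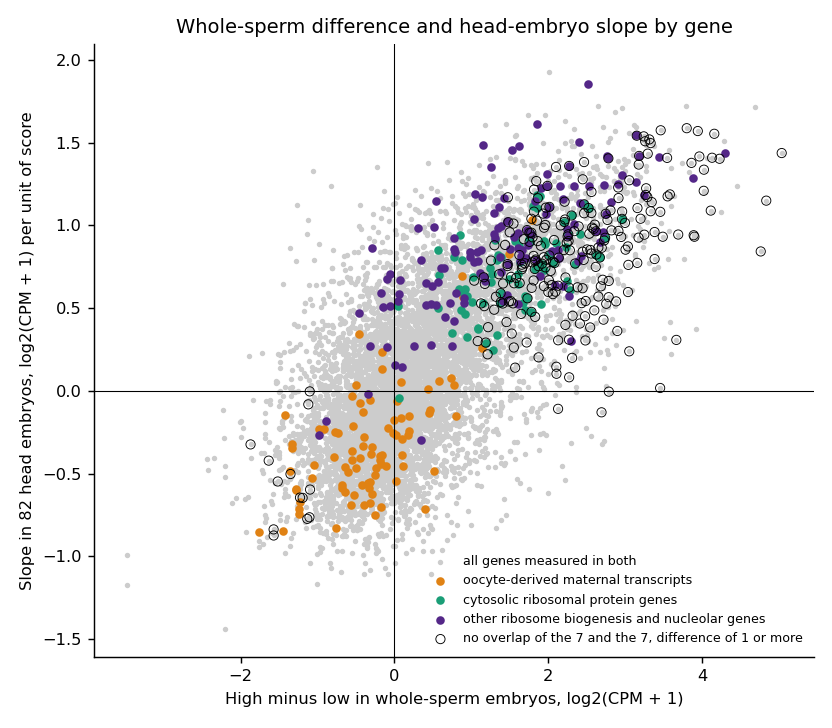
Difference between the 7 high and 7 low whole-sperm embryos (horizontal, log2(CPM + 1)) against the slope on the score in the 82 head embryos (vertical, log2(CPM + 1) per unit of score) for each gene measured in both, with 3 lists coloured and the genes without overlap ringed. Of the 225 ringed genes at right, 222 lie above 0 on the vertical axis, and none of the 13 at left does.

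The genes with the largest differences had steep slopes. Unc119b rose by 1.44 per unit of score (SE 0.09, adjusted p = 3.8e-26), Gtf3c5 by 1.42 (SE 0.08, adjusted p = 9e-30) and Gabpa by 1.41 (SE 0.07, adjusted p = 5.52e-31), each with a positive slope in 4 of 4 head groups. For the 11 higher genes drawn in the heat map the slopes ran from 0.84 for Alkbh4 to 1.57 for Fam109a. Alkbh4 depended on the embryos of low score, since its slope was -0.23 without those 12. Among the lower genes, Tmem60 fell by 0.77 per unit of score (SE 0.08, adjusted p = 1.71e-15) and Nanos2 by 0.76 (SE 0.11, adjusted p = 1.14e-09), and Arf1 had a slope of -0.00 (SE 0.06, adjusted p = 0.963). The slopes of Tmem150a, Vma21, Lman1, Gm5434, Selp, Cox18 and Arf1 were positive within the group of rete sperm from LP males and negative in the other 3 groups. Most genes had a positive slope within that group, 5750 of 7825. The median slope of all genes was 0.42 there and 0.03 to 0.06 in the other 3 groups.

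Ribosome genes were the lists with the largest shares of positive slopes. Over all genes 43.3% rose and 25.3% fell. Among other ribosome assembly genes 128 of 133 rose with the score and 3 fell, namely Riok1, Npm3 and Utp23. Nop9 rose by 1.44 per unit of score (SE 0.08, adjusted p = 1.22e-28) and Nop16 by 1.29 (SE 0.09, adjusted p = 8.02e-24). Riok1 fell by 0.27 (SE 0.09, adjusted p = 0.00419), and its slope was 0.50 within rete LP embryos. Of 81 cytosolic ribosomal protein genes 80 rose and 0 fell, with a median slope of 0.77, and the exception was Rps27l, with a slope of -0.04 (adjusted p = 0.627). Rpl10a rose by 1.04 (SE 0.08, adjusted p = 5.82e-21) and Rps6 by 0.81 (SE 0.07, adjusted p = 7.65e-19). Without the 12 embryos of low score the counts were 116 of 133 and 76 of 81. With the lists of the cell's other machines the shares were lower, with 36 of 46 initiation factors rising and 2 falling, 25 and 5 of 34 chaperone genes, 20 and 3 of 27 nucleotide synthesis genes, and 27 and 4 of 37 proteasome genes.

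On the CPM scale the medians of the mitochondrial lists lay above that of all genes in head embryos and below it in whole-sperm embryos. In head embryos 30 of 52 mitochondrial ribosomal protein genes rose with the score and 7 fell, with a median slope of 0.35. Of 56 genes of oxidative phosphorylation 30 rose and 8 fell, with a median slope of 0.24. Over all genes 43.3% rose and 25.3% fell, with a median slope of 0.10. In whole-sperm embryos the median differences of these lists were -0.05 and -0.003, against 0.23 over all genes. A slope per unit of score and a difference between groups cannot be compared in size. The difference between the 2 kinds of embryo was not tested. Psmc5 and Psmc4, lower in high whole-sperm embryos, rose with the score in head embryos by 0.39 (SE 0.08, adjusted p = 1.28e-05) and 0.53 (SE 0.11, adjusted p = 2.19e-05).

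Oocyte-derived transcripts fell with the score in head embryos. Of 87 genes 62 fell and 8 rose, with a median slope of -0.38, where 25.3% of all genes fell and 43.3% rose. Obox1 fell by 0.86 per unit of score (SE 0.07, adjusted p = 2.5e-19) and Bcl2l10 by 0.85 (SE 0.07, adjusted p = 6.2e-21), each negative in 4 of 4 groups. Cdc20 and Trim28 were among the 8 that rose, by 1.03 (SE 0.08, adjusted p = 2.37e-21) and 0.83 (SE 0.07, adjusted p = 8.07e-20). As a mean over the list, the correlation with the score was -0.72 over the 82 head embryos and -0.30 over the 21 whole-sperm embryos, both descriptions. In a single embryo a larger share of new transcripts and a smaller stock of old ones cannot be told apart on a scale of shares.

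MERVL-linked genes were split in head embryos too, with 16 of 48 rising (33.3%) and 19 falling (39.6%), against 43.3 and 25.3% of all genes. Zscan4b fell by 0.92 per unit of score (SE 0.10, adjusted p = 2.35e-14) and A430089I19Rik by 1.44 (SE 0.14, adjusted p = 1.21e-15), whereas Tdpoz2 rose by 0.68 (SE 0.12, adjusted p = 8.03e-07) and Tdpoz1 by 0.75 (SE 0.09, adjusted p = 6.61e-13). The split depended on the embryos of low score. Without those 12, 3 of the 48 genes rose and 37 fell, against 2566 and 2164 of all 7884 genes. The slopes of Tdpoz2 and Tdpoz1 were then -0.77 and -0.06.

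Pluripotency and cell cycle genes lay near the shares of all genes (43.3% positive and 25.3% negative). Of 20 pluripotency and lineage genes 10 rose and 4 fell. Dppa4 rose by 1.17 per unit of score (SE 0.05, adjusted p = 8.27e-35), Fgf4 rose by 1.02 (SE 0.12, adjusted p = 9.15e-12), Nanog fell by 0.36 (SE 0.15, adjusted p = 0.0302) and Gata3 fell by 0.39 (SE 0.13, adjusted p = 0.00583). In the cell cycle list 30 of 56 rose and 14 fell. Cdk2 rose by 0.49 (SE 0.07, adjusted p = 1.86e-09), Mcm3 rose by 1.28 (SE 0.07, adjusted p = 1.09e-29), Ccnb2 fell by 0.34 (SE 0.06, adjusted p = 1.12e-06) and Cdk5 fell by 0.64 (SE 0.14, adjusted p = 6.52e-05). Sesn2 rose by 0.91 (SE 0.06, adjusted p = 1.1e-26), in a list of 18 p53 and apoptosis genes of which 11 rose and 1 fell.

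The labelled contrast of the whole-sperm embryos, 12 with rete against 9 with cauda sperm, called no gene. In the limma fit of 7782 genes 0 had an adjusted p under 0.05 (0% of genes, lowest adjusted p 0.524), and 662 had an unadjusted p under 0.05 (8.51%). This contrast shares its embryos with the split by score. The median difference of rete minus cauda was 0.83 for the 225 higher genes and -0.38 for the 13 lower genes, against 0.10 for all genes. Split by source, the 225 higher genes had a median difference between high and low of 1.95 in the rete embryos (5 and 4). In the cauda embryos (2 and 3) it was 2.64. For the 13 lower genes the medians were -1.04 in the rete and -1.57 in the cauda embryos. These genes were chosen for having no overlap between high and low embryos, which fixed the sign within each source. The values by source therefore describe size only, and cannot show whether the direction held in each source. The 3 cauda embryos of the low group include cauda 5. Without cauda 5, with the next embryo in rank in its place, 165 genes were higher and 8 lower.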

How the data were processed

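Single 2-cell embryos were profiled by RNA sequencing, and the table the authors deposited gives CPM for 7894 genes in 103 embryos. The unit was read from the values, since each embryo sums to 92.1 to 98.1% of the fixed total. The submitters' processing notes name Bowtie and the mm10 build, with no role for either and no counting tool. In the deposited CPM the authors wrote 0 as 0.1, and 2.49% of values stand there. A median of 86.4% of low values were whole reads within 0.001, too few for a count test, so tests used log2(CPM + 1). Gene symbols turned into dates were restored for 11 rows, and 1 column of the table was not used.

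Genes needed 5 CPM in 9 embryos. The high and low embryos were described without a test, and a gene was called with a difference of at least 1 and no overlap. The head embryos were fitted with limma 3.58.1 in R 4.3.3 (trend and robust settings, two-sided, Benjamini-Hochberg), and the rete and cauda whole-sperm embryos likewise, with the script tested on simulated data. Tables and figures used Python 3.11.15, numpy 2.4.6, pandas 2.3.3 and matplotlib 3.10.9. Members and gene lists were chosen with earlier results of these data known. Genes named are the 10 score genes, the 12 largest differences in each direction at a mean of at least 10 CPM, and the 2 largest in each direction of each list, of 120 in all, of which 1 is not reported here. Lists of splicing, nuclear pores, chromatin, polymerase II, tRNA charging, the exosome, glycolysis, Myc and the mitochondrion are given by counts or only drawn. Called members named to fill a count were named after their values were seen.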

Additional observations from a re-analysis of the deposited data

Results flagged for a closer look

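A value was marked where the highest or lowest embryo of a group stood apart from its neighbours by Dixon's criterion. This held for 20 of 169 groups (11.8%), where chance gives about 1 in 20. Embryo cauda 5 accounts for many of them. It had 6696 genes at 1 CPM, the fewest among the 7 low embryos and also among the 9 cauda embryos, and it was the highest low embryo for Hibadh (311 CPM), Selp (264 CPM), Eif2b1 (1394 CPM), Psmc5 (79.6 CPM) and Bcl2l10 (9383 CPM). It was the lowest low embryo for Sesn2 (0.33 CPM) and Gata4 (2.81 CPM). Rete 3, with 7413 genes at 1 CPM the fewest among the high embryos, was the lowest of them for Arf1 (219 CPM), Mcm3 (1.11 CPM), Tmem150a (0.1 CPM) and Hspa4l (0.1 CPM). Rete 6, the embryo of highest score, had 5.92% of reads in its 10 most abundant genes, 206 CPM of Ctsc and 14 CPM of Cox18. Alkbh4 reached 4.56 CPM in rete 8 among the low embryos, Eif3b was lowest among the high embryos in cauda 9 at 22.7 CPM, and Dhodh in rete 2 at 15.3 CPM.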

How the results depend on the processing

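The calls between high and low embryos moved with scaling and with how many embryos were compared. Against 225 higher genes, quantile normalization gave 25, median-of-ratios scaling 115, 5 and 5 embryos 669 and 10 and 10 embryos 14. Both scalings ranked the embryos anew, so not all members of the groups stayed. Leaving out the shallowest embryos rete 2 and rete 1 gave 108, with cauda 7 from the group between in the place of rete 2. Rete embryos alone gave 439. Against 13 lower genes, 5 and 5 embryos gave 83, 10 and 10 embryos 0, rete embryos alone 36, and 8 each came from centring the score within source, from leaving out cauda 5 and from leaving out rete 2 and rete 1. The cause was not tested, apart from fewer or more embryos having to stay apart. In head embryos, positive slopes numbered 2164 within cauda Control and 2158 within cauda LP embryos. Negative slopes numbered 3158 with quantile normalization, 3067 with median-of-ratios scaling, 853 within cauda LP and 873 within rete LP embryos.

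Replicate numbers gave no sign of pairing the embryos. Deviations from the group mean correlated by a mean of -0.011 over 9 same-number pairs of whole-sperm embryos, against 0.002 over pairs of other numbers. In head embryos the means were 0.003 over 106 same-number pairs and 0.004 over the others. Single pairs varied, and 3 of the 9 and 37 of the 106 correlated over 0.1. With a replicate block 3192 genes had positive and 1610 negative slopes, and 0 genes differed between rete and cauda. The block turned the slopes of Arf1 to 0.034 and Cox18 to 0.006. Rete against cauda called 0 genes in each of the 10 settings run with limma, 8.51% having an unadjusted p under 0.05 as reported.

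Of named slopes 32 reversed, for 20 genes. Dhodh was 0.0082 with pseudocount 0.1. Atic was -0.16 with quantile normalization, -0.11 with median-of-ratios scaling, -0.094 with detected genes as covariate, -0.08 with depth as well, -0.013 without embryos of few detected genes, -0.018 within cauda Control and -0.11 within cauda LP embryos. Eif2b1 was 0.25 within cauda LP, and Nanog 0.0305 within rete Control embryos. Within rete LP embryos Arf1 was 0.69, Bcl2l1 0.72, Riok1 0.50, Cox18 0.47, Selp 0.46, Gm5434 0.35, Dhodh 0.86, Npm3 0.10, Lman1 0.47, Hspa4l 0.37, Vma21 0.31, Tmem150a 0.16 and Eif3l -0.34. The median slope of all genes within rete LP embryos was 0.42. Without the 12 head embryos of low score, an alternative chosen after seeing the data, Arf1 was 0.074, Eif2b1 0.13, Ccnb2 0.30, Npm3 0.16, Tdpoz1 -0.062, Tdpoz2 -0.77 and Alkbh4 -0.23. Among the whole-sperm embryos depth was lowest in rete 2.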
